A study of Homo sapiens with 8 samples.

Results

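Long noncoding RNA (lncRNA) genes were examined in MDA231 cells, a human triple-negative breast cancer line of mesenchymal character, by sequencing the 3′ ends of polyadenylated RNA. A gene was taken into the set if GENCODE release 44 gives it the type lncRNA, hosts of small nucleolar RNAs included, and if its mean count over the 8 libraries, each divided by its median-of-ratios size factor, exceeded 5. Of 58051 genes in the files 14157 carried this type, 2217 of them had at least 1 count, and 213 passed, among 7550 genes of all types. Members were thus chosen by 1 measured value, the mean count over all 8 libraries without regard to group. A gene that is low in one group can still pass through the group where it is high. Just below the limit lay PP7080, ENSG00000248161 and CD27-AS1 with mean counts of 4.88, 4.90 and 4.97, and just above it GATD1-DT, ENSG00000238142 and ENSG00000260136 with 5.03, 5.05 and 5.05.

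The groups compared were 3: unmodified parental cells (n = 2), SDHBKO cells (n = 3), which carry a TALEN-made knockout of SDHB, the iron-sulfur subunit of respiratory complex II, and SDHBKO SDHAlow cells (n = 3), which carry the same knockout and a knockdown of SDHA, the flavoprotein subunit, by a stably selected shRNA. All were harvested untreated from subconfluent cultures in full medium. The knockout line had been selected with hygromycin and the knockdown line also with puromycin, an empty-vector line was not analysed here, and the labels do not say whether a subline is 1 clone. The labels call the replicates biological without saying how the cultures were separated, so that p-values measure the spread between these samples.

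lncRNAs are transcripts with little or no coding capacity, most of them capped, spliced and polyadenylated like mRNA. Some act as scaffolds in the nucleus, some bind microRNAs or proteins in the cytoplasm, some matter mainly as carriers of a small RNA processed from an intron, and for others the act of transcription next to a coding gene is what counts. Most are expressed at a low level, which in a shallow library limits what a test can find.

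The libraries held 773042 to 1427141 reads counted on genes, and the 213 lncRNA genes took 0.717% to 0.859% of them (lowest in parental replicate 2, with a Wilson 95% interval of 0.698% to 0.736%, and highest in SDHBKO SDHAlow replicate 2, with 0.844% to 0.874%). These intervals cover counting error only. Reads not assigned to a gene made up 22.3% and 22.5% in parental and 26.0% to 28.6% in SDHBKO libraries. In SDHBKO SDHAlow libraries they made up 18.8% to 24.4%. The SDHBKO libraries thus lay above all others in this share, and its part in the comparisons was not tested. SDHBKO SDHAlow replicate 2 was also the deepest library and the one farthest from its replicates, with a chi-squared per degree of freedom of 8.96 and 9.58 against them, while the other pairs of replicates lay at 2.09 to 5.03. SDHA was at 82.8 ± 12.4 CPM (counts relative to the TMM-scaled library size; SD, n = 2) in parental, 144 ± 8.77 (n = 3) in SDHBKO and 13.0 ± 4.70 (n = 3) in SDHBKO SDHAlow cells, a log2 fold change of -3.46 between the last pair (adjusted p = 1.16e-07, edgeR quasi-likelihood test with Benjamini-Hochberg adjustment). SDHB had 0 to 4 counts per library, was not tested, and checks little. Of the markers of the line, VIM, CD44, CAV1, AXL, MSN and LGALS1 were present in every library at 54.3 CPM or more, while ANXA1 had at most 5 counts. ESR1, PGR, PTPRC and CD3E were at 0, EPCAM, FOXA1, CDH1 and PECAM1 had at most 2 counts, and GATA3 and KRT19, listed as low, reached 22.2 and 147 CPM.

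The 213 genes were shallow. Their median mean count was 10.4, against 28.4 over all 7550 genes, and 155 of them lay under 20. Their median standard error of a log2 fold change was 0.58 between SDHBKO and parental cells, against 0.39 over all genes. By position 102 were antisense to a protein-coding gene, 29 were divergent (start within 1000 bases of a coding gene's start, on the other strand), 21 overlapped a coding gene on its own strand and 61 were intergenic. Hosts of a snoRNA numbered 20 and hosts of a microRNA 14. Exons of 99 overlapped an exon of a coding gene. The sources used here do not say whether strand was kept in the counting. Among coding genes whose last 300 bases lie wholly under an exon of another gene on the opposite strand, 52.2% of 747 were detected, against 36.0% of 16852 with nothing over them, whereas with another exon on the same strand only 5.88% of 391 were. Whether the overlap itself, or other properties of these genes, sets the shares was not tested. The ends of 33 lncRNA genes touch an exon on the opposite strand and those of 13 one on their own strand, where reads may have been lost.

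Between SDHBKO and parental cells 9 of the 213 genes passed an adjusted p of 0.1 and are called changed here, 4 higher and 5 lower, which is 4.23%. Those higher include TBC1D22A-DT and ENSG00000279738, which passed the count minimum through the knockout libraries, so that a difference was built into their selection. Over all genes 5.54% were called (3.14% higher, 2.4% lower). Between SDHBKO SDHAlow and SDHBKO cells 6 were called, 3 higher and 3 lower, or 2.82% against 1.51% of all genes (0.318% higher, 1.19% lower). Those lower include ENSG00000251257, which passed the count minimum through the parental and SDHBKO libraries. Between SDHBKO SDHAlow and parental cells no lncRNA gene was called by edgeR, against 0.914% of all genes (0.225% higher, 0.689% lower), and DESeq2 called 1, UCA1. An unadjusted p under 0.05 was found for 24 of them (11.3%, against 12.3% of all genes). The first and second comparisons share the SDHBKO libraries, so that their values are given side by side and not as separate evidence. These shares differed by level. Among the 58 lncRNA genes with a mean count of 20 or more, 7 were called in the first comparison and 4 in the second (all genes of that level: 7.75% and 2.26%), and among the 155 below 20, 2 and 2 were called (all genes: 2.34% and 0.422%). Medians stayed near 0: the median log2 fold change of the 213 genes was 0.04, -0.04 and 0.05 in the 3 comparisons, against -0.00072, 0.01 and 0.02 over all genes. The calls fell on 12 genes. Of these, SPEN-AS1, MIR4435-2HG, ZBED5-AS1, ZFAS1, CEACAM16-AS1 and ENSG00000279738 have exons that overlap an exon of a coding gene. The part of these shared stretches in their values was not tested. Of the genes called in the second comparison, UCA1, LINC00324, ENSG00000250899 and ENSG00000251257 have no such overlap. By position, 4 of 102 antisense, 1 of 29 divergent, 1 of 21 same-strand overlapping and 3 of 61 intergenic genes were called in the first comparison, and 3, 0, 0 and 3 in the second.

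UCA1 showed the clearest difference of the set. It is an intergenic, cytoplasmic lncRNA first described in urothelial carcinoma and known for promoting proliferation and glycolysis in tumour cells. UCA1 (ENSG00000214049, GRCh38 chr19:15828206-15836328, plus strand) was at 226 and 264 CPM in parental cells, 149, 146 and 146 in SDHBKO cells, and 379, 381 and 425 in SDHBKO SDHAlow cells. No group overlapped another, and the 3 SDHBKO libraries lay within a few CPM of each other (147 ± 2.01, SD, n = 3). For UCA1 the log2 fold change was -0.74 ± 0.21 (SE) for SDHBKO against parental cells (adjusted p = 0.064, edgeR) and 1.43 ± 0.19 for SDHBKO SDHAlow against SDHBKO cells (adjusted p = 0.00034). The rise on SDHA knockdown held in all 16 alternative analyses, with log2 fold changes of 1.37 to 1.46 and adjusted p-values from 3.99e-10 to 0.0089. The lower level in SDHBKO cells kept its size in the alternatives (log2 fold changes of -0.85 to -0.62), but was called in only 9 of 16. It was not called without a filter or with the replicate number as a block. Nor was it called on leaving out any 1 of the SDHBKO libraries (adjusted p = 0.15, 0.10 and 0.17, edgeR) or of the parental libraries. Against parental cells the level in SDHBKO SDHAlow cells differed by 0.69 ± 0.21 (adjusted p = 0.15; 0.077 by DESeq2). In bulk RNA a change in a fraction of the cells and a change in every cell cannot be told apart. The 133 other tested genes within 5000000 bases of its start had a median log2 fold change of 0.15 in the first comparison and 0.0061 in the second.

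ZBED5-AS1 and CEACAM16-AS1 were the other lncRNA genes called higher in SDHBKO SDHAlow than in SDHBKO cells. ZBED5-AS1 (ENSG00000247271, chr11:10858179-10908972, plus strand), transcribed opposite the transposon-derived zinc finger gene ZBED5, was at 53.2 and 39.8 CPM in parental, 20.5, 22.2 and 21.6 in SDHBKO and 50.7, 49.2 and 64.6 in SDHBKO SDHAlow cells. The SDHBKO libraries lay below all others. ZBED5-AS1 changed by a log2 fold of -1.11 ± 0.33 against parental cells (adjusted p = 0.076, edgeR) and 1.34 ± 0.30 on SDHA knockdown (adjusted p = 0.027), and SDHBKO SDHAlow differed from parental cells by 0.23 ± 0.31 (adjusted p = 0.81). Its partner ZBED5 had 0 to 3 counts per library, so that the pair could not be compared. The rise was not called without SDHBKO SDHAlow replicate 3, SDHBKO replicate 1 or SDHBKO replicate 3 (adjusted p = 0.16, 0.13 and 0.14). The fall was not called without any 1 parental or SDHBKO library (adjusted p = 0.10 to 0.58).

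CEACAM16-AS1 (ENSG00000266903, chr19:44631573-44725217, minus strand) runs antisense through PVR, the poliovirus receptor and ligand of lymphocyte receptors, and through 3 genes with at most 1 count, IGSF23, CEACAM16 and CEACAM19. It was at 15 and 19.9 CPM in parental, 9.58, 7.78 and 14 in SDHBKO and 32.6, 39.5 and 33.4 in SDHBKO SDHAlow cells. The SDHBKO SDHAlow libraries lay above all others. The log2 fold change on SDHA knockdown was 1.74 ± 0.38 (adjusted p = 0.027, edgeR), while PVR differed by -0.22 in the same comparison (adjusted p = 0.68). The call was lost without SDHBKO replicate 1 (adjusted p = 0.13) or SDHBKO replicate 2 (0.12). The 134 neighbours of CEACAM16-AS1 had a median of -0.15.

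**Figure D1:**
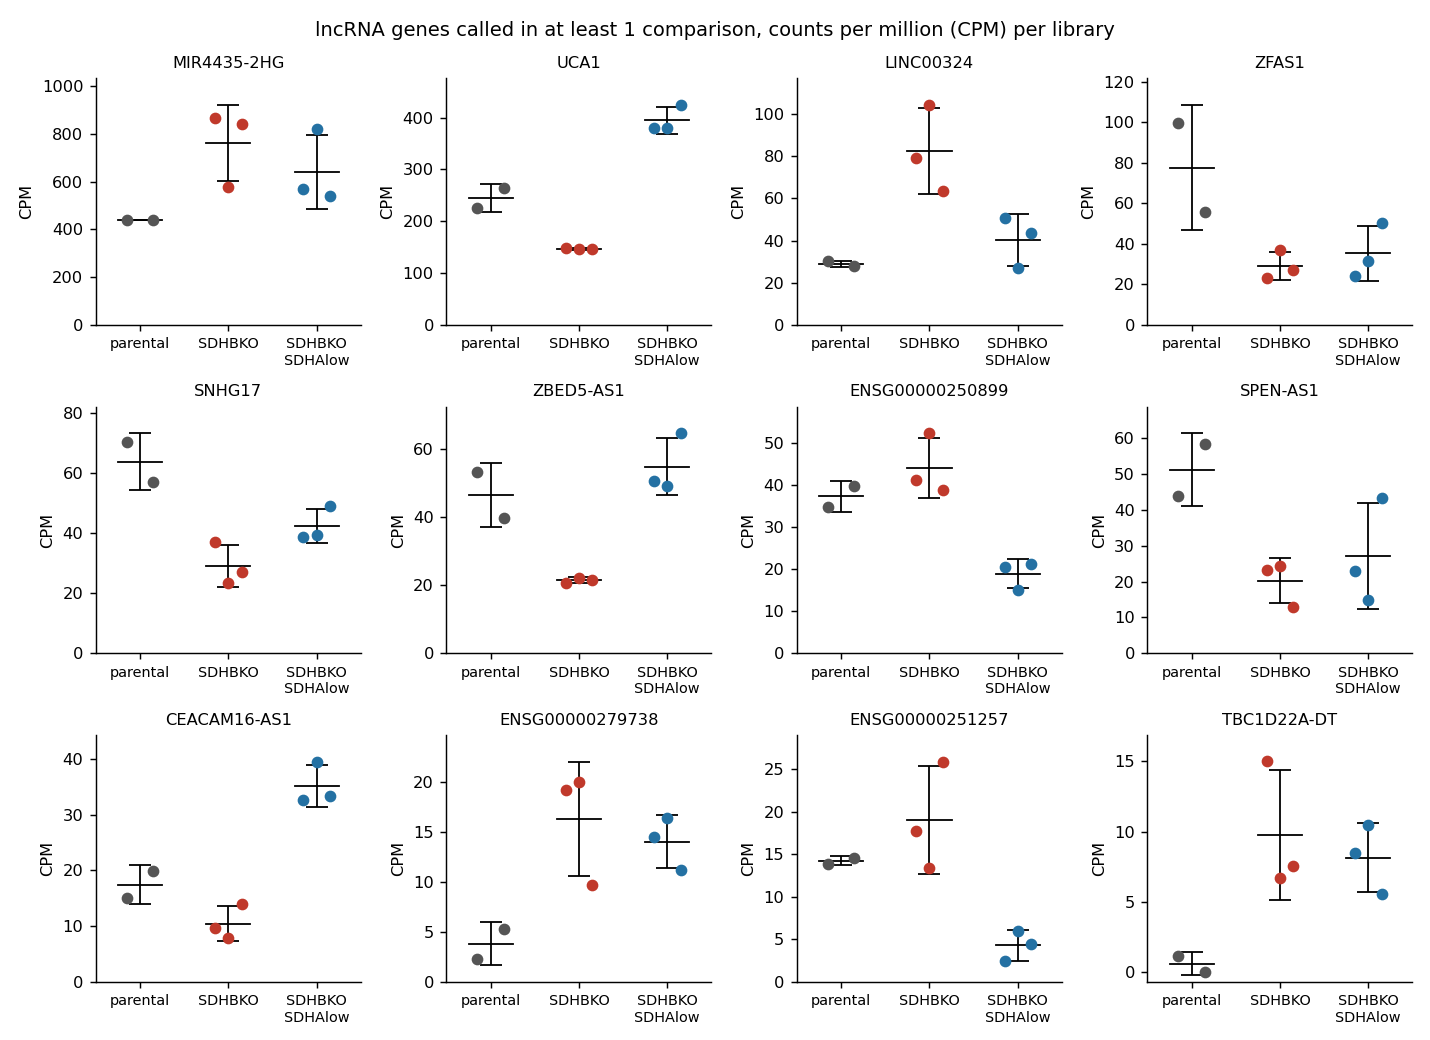
CPM in each library for the 12 lncRNA genes called in at least 1 comparison; points are libraries, horizontal lines group means and bars SD (n = 2, 3 and 3), on linear axes of different height. UCA1, ZBED5-AS1 and CEACAM16-AS1 show SDHBKO libraries lowest, with SDHBKO SDHAlow libraries above all others in UCA1 and CEACAM16-AS1 but level with parental ones in ZBED5-AS1; LINC00324 shows SDHBKO highest, and ENSG00000250899 and ENSG00000251257 are low in SDHBKO SDHAlow.

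LINC00324 was the lncRNA gene of the opposite order. This intergenic lncRNA (ENSG00000178977, chr17:8220624-8224043, minus strand), studied in several carcinomas as a promoter of proliferation, was at 30.1 and 27.9 CPM in parental, 79.4, 104 and 63.7 in SDHBKO and 50.7, 26.9 and 43.5 in SDHBKO SDHAlow cells. SDHBKO libraries were the highest, and the 2 other groups overlapped. Its log2 fold change was 1.503 ± 0.35 for SDHBKO against parental (adjusted p = 0.025, edgeR) and -1.06 ± 0.29 for SDHBKO SDHAlow against SDHBKO cells (adjusted p = 0.091). The first call was lost without parental replicate 1 (adjusted p = 0.36) or parental replicate 2 (0.18). The second was kept in 6 of 16 alternatives, and of the libraries left out one at a time only leaving out SDHBKO SDHAlow replicate 1 kept it (adjusted p without the others 0.12 to 0.27). Its transcript ends (chr17:8220624-8220683, minus strand) in a stretch with the AATAAA hexamer, the main poly(A) signal, whose last occurrence is in capitals. The hexamer was present in the last 60 bases of 94 of the 213 lncRNA genes (44.1%) and of 66.5% of the 7164 protein-coding genes tested.
LINC00324 end: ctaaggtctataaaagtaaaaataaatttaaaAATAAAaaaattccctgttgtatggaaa

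ENSG00000250899 and ENSG00000251257, lncRNA genes with no name of their own, were called lower on SDHA knockdown. ENSG00000250899 (chr12:3041437-3044950, plus strand), intergenic and of 1 exon, was at 34.7 and 39.8 CPM in parental, 41.0, 52.2 and 38.8 in SDHBKO and 20.5, 14.9 and 21.2 in SDHBKO SDHAlow cells. It changed by -1.24 ± 0.32 (log2) (adjusted p = 0.073, edgeR). ENSG00000251257 (chr5:38460925-38468339, minus strand), antisense to the matrix protein gene EGFLAM, which had no counts, was at 13.9 and 14.6, then 17.8, 13.3 and 25.9, then 2.41, 5.97 and 4.46 CPM in the same order of groups. In the SDHBKO SDHAlow libraries 3 counts equal 3.62, 2.24 and 3.34 CPM, so that the values of ENSG00000251257 there rest on few reads. Its log2 fold change was -2.06 ± 0.51 (adjusted p = 0.063, edgeR). In both genes the SDHBKO SDHAlow libraries lay below all others. Both calls were lost on leaving out most single libraries, a parental one included: ENSG00000250899 kept it only without SDHBKO SDHAlow replicate 2, with adjusted p-values of 0.12 to 0.19 without each of the others, and ENSG00000251257 only without SDHBKO SDHAlow replicate 2 or SDHBKO replicate 2, with 0.10 to 0.33 otherwise.

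The genes around these 3 lncRNA genes had medians of the same sign as the lncRNA gene in the second comparison. Around LINC00324, 79 other tested genes within 5000000 bases had a median log2 fold change of 0.29 in SDHBKO against parental and -0.48 in SDHBKO SDHAlow against SDHBKO cells, with 68 of the 79 below 0 in the latter and 8 called, each of them lower. Around ENSG00000250899, near the end of the short arm of chromosome 12, the medians over 43 genes were 0.48 and -0.69, with 41 of 43 below 0 and 4 called lower in the second comparison. Around ENSG00000251257 the medians over 13 genes were 0.03 and -0.69, with 11 of 13 below 0. Over the windows of all 213 lncRNA genes the middle 90% of medians (percentiles 5 to 95) ran from -0.33 to 0.29 in the second comparison, so that these 3 lay outside it and UCA1 (0.0061) and ZBED5-AS1 (0.11) inside. Windows of neighbouring lncRNA genes share genes. DNA copy number was not measured, and its part in these values was not tested.

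**Figure D2:**
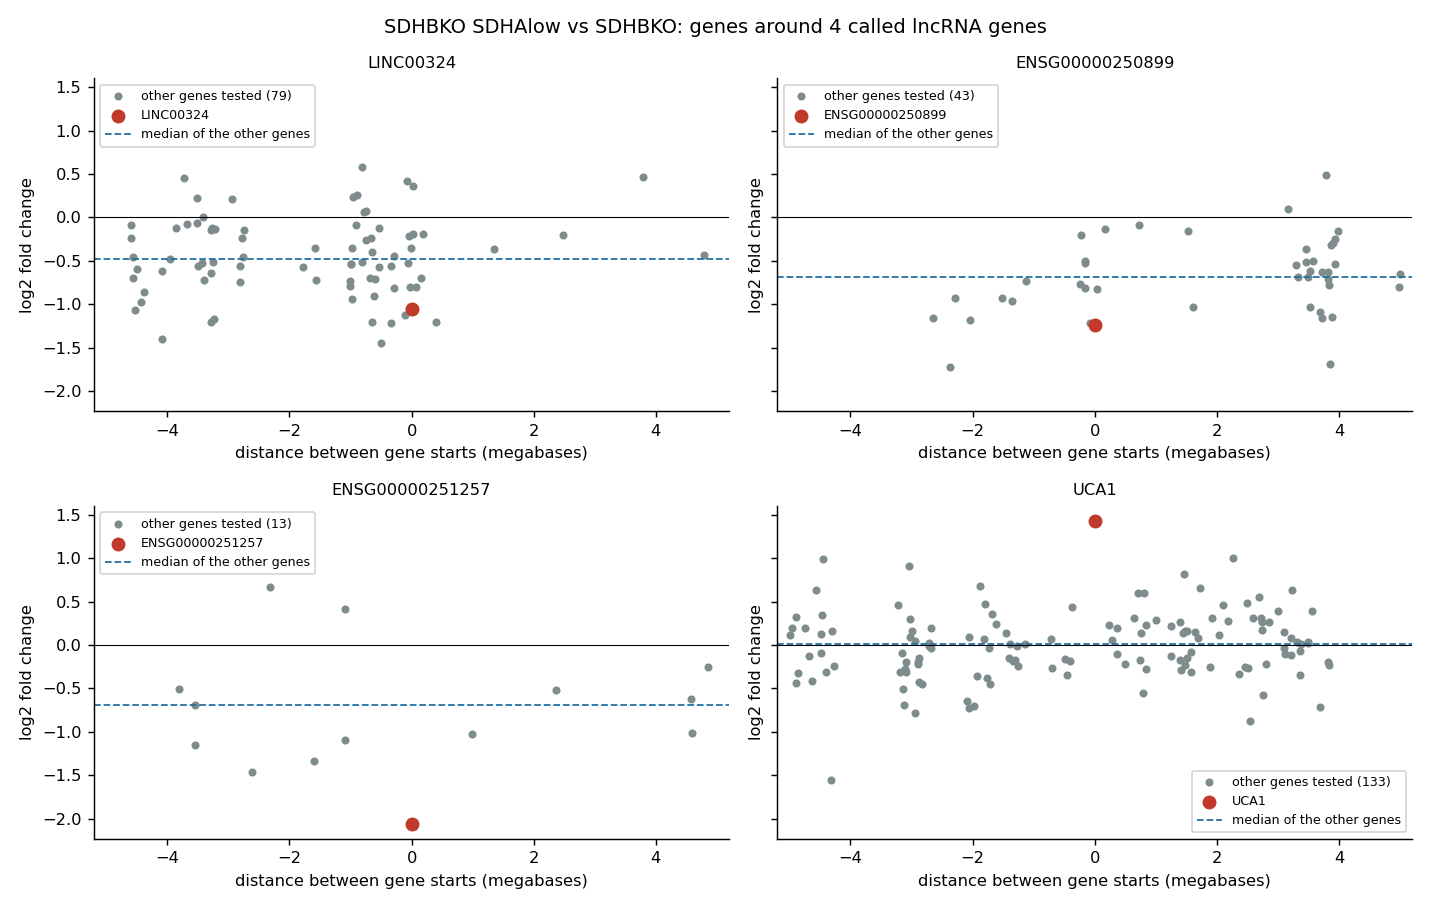
Log2 fold change (SDHBKO SDHAlow against SDHBKO cells) of every tested gene within 5 megabases of the start of 4 called lncRNA genes, against the distance between starts; the lncRNA gene is red, other genes are grey and the dashed line is their median. The genes around LINC00324, ENSG00000250899 and ENSG00000251257 lie mostly below 0 (medians -0.48, -0.69 and -0.69), whereas those around UCA1 centre on 0.0061 with UCA1 at 1.43.

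Hosts of small nucleolar RNAs (snoRNAs) made up 4 of the 10 lncRNA genes of highest mean CPM. Their introns carry box C/D and H/ACA snoRNAs, which guide methylation and pseudouridylation of ribosomal RNA, and many of the spliced host transcripts start with a pyrimidine tract like that of ribosomal protein mRNAs and are quickly degraded when translated. Of the 20 hosts, 2 were called lower in SDHBKO than in parental cells, ZFAS1 and SNHG17, and none higher (all genes: 2.4% lower, 3.14% higher). The log2 fold change was below 0 in 15 of 20, with a median of -0.26, against -0.00072 over all genes. On SDHA knockdown 15 of 20 were above 0 (median 0.26) and none was called, and against parental cells none was called either (median -0.34). The hosts summed to 1693 to 2087 CPM in parental, 1575 to 1718 in SDHBKO and 1735 to 2085 in SDHBKO SDHAlow libraries, so that the parental range overlapped both others while SDHBKO lay just below SDHBKO SDHAlow. Without the 4 most abundant hosts the sums were 926 and 678 CPM in parental and 550.1, 630.3 and 592 in SDHBKO libraries. In SDHBKO SDHAlow libraries they were 700.0, 610.3 and 813. Both parental libraries then lay above the SDHBKO ones, with parental replicate 2 (678) the nearer to them. This subset was not planned and was picked by level in these same data, so that the sums are a description.

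ZFAS1 (ENSG00000177410, chr20:49278178-49299600, plus strand) begins beside the 5′ end of ZNFX1, an RNA helicase gene on the other strand, and binds the small ribosomal subunit. It was at 99.5 and 55.8 CPM in parental, 23.3, 36.7 and 27.0 in SDHBKO and 24.1, 31.3 and 50.1 in SDHBKO SDHAlow cells. Both parental libraries lay above all others. ZFAS1 changed by a log2 fold of -1.42 ± 0.36 for SDHBKO (adjusted p = 0.036, edgeR) and -1.15 ± 0.35 for SDHBKO SDHAlow against parental cells (adjusted p = 0.15). ZNFX1 differed by -0.22 (adjusted p = 0.68) in the first. The call rests in part on parental replicate 1: without it the log2 fold change was -0.93 (adjusted p = 0.58), and it was also lost without SDHBKO replicate 1 (0.15) or SDHBKO replicate 3 (0.13). The 3 snoRNAs of ZFAS1 are printed because they are the conserved product of the gene; the C box (TGATGA) and the last D box (CTGA) are in capitals. They lie at chr20:49278940-49279028, chr20:49280319-49280409 and chr20:49280683-49280772 on the plus strand. They are too short and not polyadenylated, so that the counts describe the host transcript and not these RNAs.
SNORD12C: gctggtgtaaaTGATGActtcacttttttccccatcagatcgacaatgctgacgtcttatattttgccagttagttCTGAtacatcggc
SNORD12B: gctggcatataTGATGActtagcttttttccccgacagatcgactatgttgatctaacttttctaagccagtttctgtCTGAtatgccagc
SNORD12: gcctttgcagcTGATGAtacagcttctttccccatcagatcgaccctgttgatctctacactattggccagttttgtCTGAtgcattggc

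SNHG17 (ENSG00000196756, chr20:38419638-38435409, minus strand), host of the H/ACA snoRNAs of the SNORA71 family, was at 70.6 and 57.1 CPM in parental, 36.9, 23.3 and 27.0 in SDHBKO and 38.6, 39.5 and 49.0 in SDHBKO SDHAlow cells. The groups did not overlap. The log2 fold change was -1.15 ± 0.32 (adjusted p = 0.059, edgeR) in SDHBKO against parental cells and 0.55 ± 0.29 (adjusted p = 0.47) on SDHA knockdown. The call was lost without parental replicate 1 (adjusted p = 0.50), parental replicate 2 (0.17), SDHBKO replicate 2 (0.12) or SDHBKO replicate 3 (0.17). SNHG32 missed the threshold in the first comparison (log2 fold change -1.08, adjusted p = 0.11, and 0.095 by DESeq2), with 156 and 66.4 CPM in parental against 42.4, 66.7 and 48.6 CPM in SDHBKO cells, which overlap. GAS5, a starvation-responsive host that binds the glucocorticoid receptor, was at 60.2 and 33.2, then 20.5, 25.6 and 33.5, then 27.8, 18.7 and 66.9 CPM, with no group apart from another. SNHG7 had 34.7 and 26.5, then 12.3, 11.1 and 21.6, then 32.6, 23.1 and 37.9 CPM, and its log2 fold changes of -1.01 and 1.02 were not called (adjusted p = 0.20 and 0.26). SNHG3 stood on the other side, with 55.5 and 65.0 CPM in parental and 72.3 to 111 CPM elsewhere (log2 fold change 0.50 and, against parental, 0.75 in SDHBKO SDHAlow; adjusted p = 0.35 and 0.23).

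The parental libraries differed in this class. Parental replicate 1 exceeded replicate 2 in 15 of 20 hosts, by a median ratio of 1.27, against a median of 0.97 over all genes and 0.96 over 77 ribosomal protein genes, and the part of this library in the host difference between SDHBKO and parental cells was not tested beyond leaving it out, as above. Ribosomal protein genes summed to 151718 and 164728 CPM in parental and 135567 to 185466 CPM in SDHBKO libraries, with no separation, whereas the median over these genes was 1139.6 and 1133.7 CPM in parental, 1467, 1167 and 1276 in SDHBKO and 1494, 1465 and 1328 in SDHBKO SDHAlow libraries, each knockout library above both parental ones. A start tract was taken as a C at the RefSeq start followed by at least 4 bases that are each C or T. It was present at 5 of 16 hosts with a RefSeq start (31.2%), at 3.23% of 93 other lncRNA genes and at 63.9% of 61 ribosomal protein genes. The share was 6.35% over the 6081 tested genes with a RefSeq start and 4.04% over all 27305 promoters. At the starts used, ZFAS1 and SNHG32 had it and SNHG17 did not. The score was taken at 1 RefSeq start per gene, which for ZFAS1, SNHG32 and SNHG17 alike lies inside the GENCODE gene. Another start could score otherwise, so that a tract present or missing here holds only for the start used. The windows run from 20 bases before to 30 bases from the start on (GRCh38.p14, RefSeq; chr20:49278622-49278671 plus, chr6:31834896-31834945 plus, chr20:38435299-38435348 minus), with the pyrimidine run from the start in capitals.
ZFAS1 start: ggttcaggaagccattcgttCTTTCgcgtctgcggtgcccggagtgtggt
SNHG32 start: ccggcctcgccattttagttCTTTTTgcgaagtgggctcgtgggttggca
SNHG17 start: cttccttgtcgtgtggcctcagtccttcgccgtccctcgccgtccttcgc

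**Figure D3:**
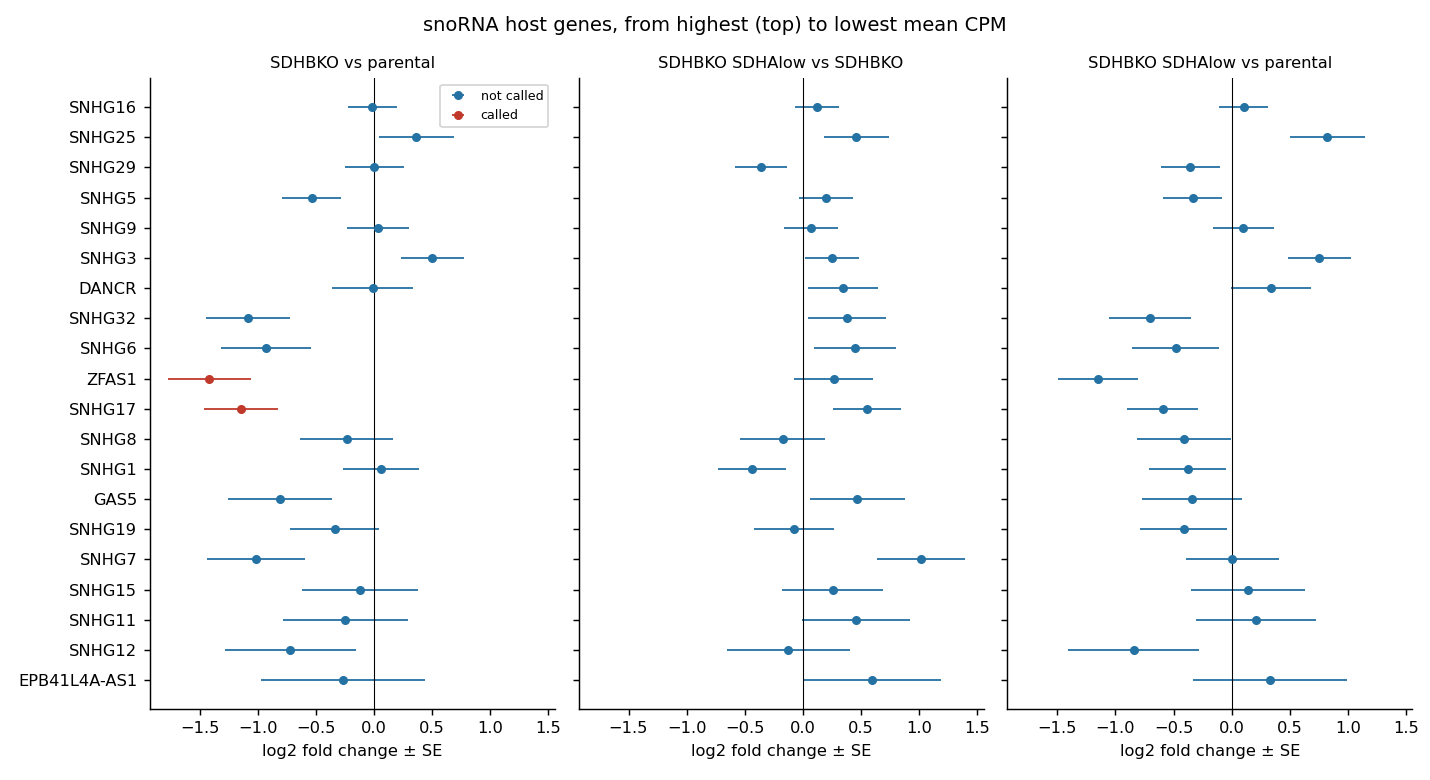
Log2 fold change with its standard error for the 20 snoRNA host genes in the 3 comparisons, ordered by mean CPM from the top; red marks an adjusted p under 0.1 (edgeR). ZFAS1 and SNHG17 are called in SDHBKO against parental cells (left), 15 of 20 hosts lie below 0 there and 15 of 20 above 0 on SDHA knockdown (middle), where none is called.

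Hosts of microRNAs included the most abundant lncRNA genes. CYTOR and MIR4435-2HG are a pair of near-identical genes on either side of the chromosome 2 centromere, known from cytoskeleton regulation, migration and NF-kB signalling in tumour cells, and each carries a copy of miR-4435 with the same mature sequence and seed (bases 2 to 8, in capitals).
hsa-miR-4435 of MIR4435-1: aUGGCCAGagcucacacagagg
hsa-miR-4435 of MIR4435-2: aUGGCCAGagcucacacagagg

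MIR4435-2HG (ENSG00000172965, chr2:111006015-111523376, minus strand) was at 441 and 438 CPM in parental, 866, 579 and 844 in SDHBKO and 568, 820.0 and 538 in SDHBKO SDHAlow cells. Every library with an SDHB knockout exceeded both parental ones. The log2 fold change was 0.80 ± 0.24 for SDHBKO (adjusted p = 0.076, edgeR) and 0.55 ± 0.23 for SDHBKO SDHAlow against parental cells (adjusted p = 0.33). CYTOR (ENSG00000222041, chr2:87454781-87636740, plus strand) had the highest level of the set, 986 and 1078 CPM in parental, 1928, 1282 and 1809 in SDHBKO and 1189, 2084 and 1129 in SDHBKO SDHAlow cells, with the same libraries high and low. Its log2 fold change of 0.70 ± 0.25 in SDHBKO against parental cells missed the threshold (adjusted p = 0.14; 0.081 by DESeq2). The call of MIR4435-2HG was lost without parental replicate 1 (adjusted p = 0.50), parental replicate 2 (0.34), SDHBKO replicate 1 (0.23) or SDHBKO replicate 3 (0.20), and without SDHBKO SDHAlow replicate 2, CYTOR was called too (adjusted p = 0.015). Reads from the end of CYTOR cannot be counted independently of MIR4435-2HG. The last 300 bases of CYTOR match a MIR4435-2HG transcript at 99.0% identity. In the last 120, shown with the 1 differing base in capitals, a read often cannot be assigned to one of the genes (chr2:87636621-87636740 plus, chr2:111314104-111314223 minus). The MIR4435-2HG stretch shown lies inside that gene, and the last 300 bases of the canonical MIR4435-2HG transcript had no such copy elsewhere. Reads mapping to more than 1 place numbered 109766 and 108929 in parental and 178030, 176406 and 187572 in SDHBKO libraries. In SDHBKO SDHAlow libraries, the second of which was the deepest, they numbered 132545, 170848 and 127957. The part of these reads in the values of this pair was not tested. Only uniquely mapped reads were counted, so the split between CYTOR and MIR4435-2HG is uncertain. Their sum was 1426 and 1516 CPM in parental against 1861 to 2794 in SDHBKO and 1667 to 2904 in SDHBKO SDHAlow cells.
CYTOR end: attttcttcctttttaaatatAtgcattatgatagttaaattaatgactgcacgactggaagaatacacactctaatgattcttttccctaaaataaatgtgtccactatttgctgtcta
MIR4435-2HG end: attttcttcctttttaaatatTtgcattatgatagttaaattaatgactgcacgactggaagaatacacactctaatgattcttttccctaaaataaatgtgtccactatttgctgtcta

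Of the 14 microRNA hosts 1 was called in the first comparison (MIR4435-2HG, higher; 7.14%, against 5.54% of all genes) and 1 in the second (CEACAM16-AS1, host of MIR4531 and described above, higher; all genes 1.51%), none in the third (all genes 0.914%), with medians of 0.06, -0.04 and 0.06. ENSG00000207751, which overlaps PPIL2, had log2 fold changes of -2.24 ± 0.77 and 2.02 ± 0.71 on 1 to 14 counts per library and was not called (adjusted p = 0.12 and 0.24). MIRLET7BHG and MIR23AHG, hosts of let-7 family and miR-23a cluster microRNAs, had log2 fold changes of -0.53 and 0.74 in SDHBKO against parental cells (adjusted p = 0.57 and 0.54).

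SPEN-AS1 was the antisense gene with a measurable partner among those called lower in SDHBKO cells beside ZFAS1. SPEN-AS1 (ENSG00000179743, chr1:15834474-15848147, minus strand) lies opposite SPEN, a transcriptional repressor that binds RNA, and was at 44 and 58.4 CPM in parental, 23.3, 24.5 and 12.9 in SDHBKO and 22.9, 14.9 and 43.5 in SDHBKO SDHAlow cells. The SDHBKO libraries lay below both parental ones. Its log2 fold change was -1.34 ± 0.42 (adjusted p = 0.092, edgeR), and SPEN, with 3 to 19 counts per library, had -0.82 (adjusted p = 0.49). The call was lost without any 1 parental or SDHBKO library and without SDHBKO SDHAlow replicate 1 (adjusted p = 0.10 to 0.44).

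TBC1D22A-DT and ENSG00000279738 were called higher in SDHBKO than in parental cells from very few parental counts. TBC1D22A-DT (ENSG00000260708, chr22:46761893-46762564, minus strand) starts 53 bases from TBC1D22A, a Rab GTPase-activating protein gene on the other strand, and had 1 and 0 counts in parental, 11, 6 and 7 in SDHBKO and 7, 14 and 5 in SDHBKO SDHAlow cells. It passed the mean count of 5 through the 6 knockout libraries alone, so that a difference from parental cells was built into its selection and the values are a description. Summed over libraries and scaled by their sizes, SDHBKO cells were 15.2 times parental cells with an exact 95% counting interval of 2.48 to 624. The interval covers counting error only and takes no account of this selection. The fitted log2 fold change (3.69, adjusted p = 0.063, edgeR) depends on the prior count and was not called without either parental library (adjusted p = 0.40 and 0.33), SDHBKO replicate 1 (0.19) or SDHBKO replicate 3 (0.11). TBC1D22A differed by 0.25 (adjusted p = 0.78). The bases between both starts (chr22:46762565-46762616, plus strand) are shown with the 5 CG pairs, the sites of DNA methylation, in capitals.
Between TBC1D22A-DT and TBC1D22A: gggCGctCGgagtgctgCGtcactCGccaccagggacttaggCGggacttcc

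ENSG00000279738 (chr22:37876148-37895563, plus strand) covers EIF3L, a translation initiation factor gene, on the same strand. It had 2 and 4 counts in parental, 14, 18 and 9 in SDHBKO and 12, 22 and 10 in SDHBKO SDHAlow cells (log2 fold change 2.08 ± 0.65, adjusted p = 0.092, edgeR). EIF3L itself had 0 or 1 count per library. A read that falls on exons of both genes is not counted for either, while one from an EIF3L intron would be counted for ENSG00000279738, a single exon over the whole stretch. Where its few reads fall was not examined. The call was kept in 7 of 15 alternatives, and lost without parental replicate 1 (adjusted p = 0.60), parental replicate 2 (0.21), each SDHBKO replicate (0.10 to 0.22) or SDHBKO SDHAlow replicate 1 (0.10).

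No lncRNA gene was called together with its coding partner in any of the 3 comparisons. In 61 antisense pairs with a tested coding partner, the 2 genes had the same sign in 32 in SDHBKO against parental and in 34 in SDHBKO SDHAlow against SDHBKO cells. In 24 divergent pairs the numbers were 8 and 7, and in 14 pairs overlapping on the same strand 10 and 11. In SDHBKO SDHAlow against parental cells the numbers were 32, 12 and 6 for the 3 classes, with no such leaning, and the first and second comparisons share the SDHBKO libraries. The partner was called in 3 of 61 antisense, 1 of 24 divergent and 1 of 14 same-strand pairs in the first comparison, where 5.54% of all genes were called. Across the antisense pairs, Pearson's r between the log2 fold changes was 0.04 and 0.07, a description over 61 pairs that share all libraries. The starts of the 29 divergent genes lay 19 to 966 bases from the coding start (median 142).

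**Figure D4:**
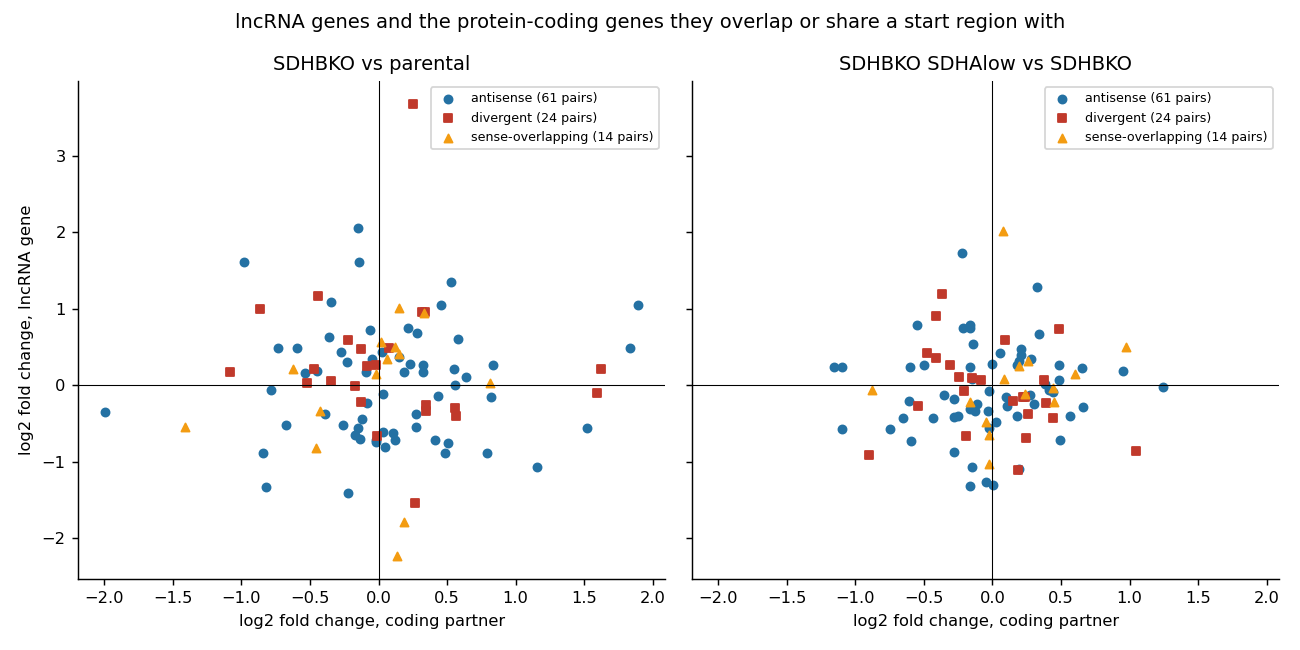
Log2 fold change of a lncRNA gene (vertical) against that of its tested protein-coding partner (horizontal) for 61 antisense, 24 divergent and 14 same-strand pairs, in SDHBKO against parental (left) and SDHBKO SDHAlow against SDHBKO cells (right). Points fill all 4 quadrants; the uppermost square at left is TBC1D22A-DT at 3.69 with TBC1D22A at 0.25.

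Few of the lncRNA genes listed for nuclear architecture, stress or cancer passed the count minimum. Of 7 nuclear and architectural lncRNA genes 4 were members and none was called, with median log2 fold changes of -0.09, -0.56 and -0.61 in the 3 comparisons (all genes: -0.00072, 0.01 and 0.02). MALAT1, a nuclear speckle RNA, was at 70.6 and 25.2, then 32.8, 72.3 and 32.4, then 35.0, 14.9 and 49.0 CPM. NEAT1, the scaffold of paraspeckles, was at 31.2 and 18.6, then 16.4, 38.9 and 14, then 6.03, 12.7 and 30.1 CPM. NORAD, which sequesters Pumilio proteins, was at 34.7 and 11.9, then 10.9, 35.6 and 17.3, then 14.5, 17.2 and 10.03 CPM. All 3 were high in parental replicate 1 and SDHBKO replicate 2, so that libraries of 1 group differed by more than the groups did. FIRRE had 3 to 14 counts, and TUG1, typed as protein-coding in this annotation, 6 to 32. Of 13 genes listed for p53 and DNA damage 4 were members and none was called (medians -0.12, -0.39 and -0.49), and MEG3, PANDAR, MIR34AHG, PURPL and PINCR had no count in any library. MDA231 cells carry mutant p53, and its part in these values was not tested. Of 10 genes listed for hypoxia 3 were members, MALAT1, NEAT1 and UCA1 (medians -0.11, -0.52 and -0.59). UCA1 was the one called, in the first and second comparisons, where 5.54% and 1.51% of all genes were called. H19, HOTAIR and HIF1A-AS1 had no count and MIR210HG at most 3. Of 6 NF-kB genes CYTOR was the one member, with log2 fold changes of 0.70, -0.19 and 0.51, none called. Of 17 cancer and mesenchymal genes 4 were members (medians 0.06, 0.08 and 0.42), and HOTAIR, BCAR4, LINC-ROR and MIR17HG had no count. The one called was again UCA1, the same gene as in the hypoxia list. No count in a library allows up to 3 counts, or 2.24 to 4.10 CPM at these depths.

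The remaining lncRNA genes of high level were not called. SNHG16 was at 287 to 386 CPM over the 8 libraries and SNHG29 at 164 to 376, with log2 fold changes between -0.36 and 0.12 in the 3 comparisons. SNHG25 was at 219 to 311 CPM in 7 libraries and at 657 in SDHBKO SDHAlow replicate 2, the library that stood apart. ENSG00000267317, antisense to APC2, was at 228 to 345 CPM. LINC02241 was at 219.8 and 259 CPM in parental, 193, 173 and 159 in SDHBKO and 191, 236 and 212 in SDHBKO SDHAlow cells (log2 fold change -0.45 ± 0.22 in SDHBKO against parental cells, adjusted p = 0.29). SNHG5 was at 274 and 182, then 175, 169 and 129, then 221, 135 and 191 CPM. AFAP1-AS1, an antisense RNA linked to invasion through actin regulation, was at 172 and 154, then 101, 119 and 111, then 169, 139.5 and 175 CPM, with SDHBKO libraries below all others. Its log2 fold changes of -0.56 ± 0.23 and 0.54 ± 0.21 were not called (adjusted p = 0.19 and 0.28, edgeR). LINP1, a scaffold in DNA end joining, came nearest to the threshold in the second comparison: 48.6 and 50.4 CPM in parental, 47.9, 48.9 and 55.0 in SDHBKO and 104, 76.9 and 92.5 in SDHBKO SDHAlow cells (log2 fold change 0.84 ± 0.24, adjusted p = 0.11, and 0.039 without SDHBKO SDHAlow replicate 2). It falls outside the rule for named genes and was chosen after its values were seen.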

How the data were processed

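RNA from 8 libraries was read from transcript 3′ ends (QuantSeq FWD). Per the methods, the authors trimmed low-quality reads (Trimmomatic), discarded rRNA and mitochondrial sequences, and aligned to GRCh38 with STAR 2.5.2b, which also gave gene counts. The deposited raw counts are unnormalized and were used. The deposited normalized counts (signal) are these counts divided by 1 factor per library, and were only checked: those of SDHBKO replicates 1 and 3 are exchanged against the raw counts, matching within 0.0001. Whether the strand was set in the counting is not given in the sources used here, and the measured check is in the report.

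Genes with a mean size-factor-scaled count above 5 (7550) were fitted with TMM and the edgeR 4.0.16 quasi-likelihood method (R 4.3.3), all 8 libraries and 3 groups in 1 fit, with Benjamini-Hochberg adjustment over all 7550 genes in each comparison and a threshold of 0.1. The depth was 773042 to 1427141 counts per library, and 3 counts equal 2.24 to 4.10 CPM. Types and positions came from GENCODE release 44 (GRCh38), start windows and microRNAs from RefSeq (109 of 213 genes matched a start). BLAST 2.17.0 compared the last 300 bases of each canonical transcript with all transcripts (at least 95% identity over 100 bases), and 11 of 213 had such a copy elsewhere, CYTOR, MALAT1 and NORAD among the genes described.

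Named genes were every called lncRNA gene, the 10 of highest mean CPM, members of lists for snoRNA hosts, microRNA hosts, positional classes, nuclear, p53, hypoxia, NF-kB and cancer lncRNAs, with coding neighbours, SDHA, SDHB, cell-line markers and genes next to the count limit. Members and lists were chosen with earlier results of these data known. Alternatives were DESeq2 1.42.0, its size factors, total counts, other filters, a threshold of 0.05, 2-group fits, the replicate number as a block, members without exon overlap and each library left out. The fit was tested on simulated data. The transcript end of 1 gene is not reported here.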

Additional observations from a re-analysis of the deposited data

How the results depend on the processing

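No fold change of a called gene reversed. The count of lncRNA genes called in SDHBKO against parental cells (9) was 6 by DESeq2, 2 at an adjusted p of 0.05, 16 with only the 2 groups compared, 3 with the replicate number as a block, 4 among genes sharing no exon with a coding gene, and 0 to 16 on leaving out 1 library (0 without parental replicate 1, 1 without parental replicate 2 or SDHBKO replicate 3, 2 without SDHBKO replicate 1, 16 without SDHBKO SDHAlow replicate 2). With a lone parental library, its spread was assumed to equal that of the other groups. In SDHBKO SDHAlow against SDHBKO cells (6) it was 3 at 0.05, 3 with only the 2 groups and 3 with the block, and 1 to 9 on leaving out 1 library (1 without SDHBKO replicate 1, 2 without SDHBKO replicate 3 or SDHBKO SDHAlow replicate 3, 3 without SDHBKO replicate 2 or either parental replicate). Against parental cells (0) it was 1 by DESeq2 (UCA1), 2 without a filter (SNHG25 and ZFAS1) and 0 to 2 on leaving out 1 library (LINP1 and UCA1 without SDHBKO SDHAlow replicate 2, ZFAS1 without replicate 3). UCA1 on SDHA knockdown stayed called throughout. The cause was not tested. Other scalings moved the median of all genes by under 0.1. Equal replicate numbers did not deviate together (mean r of -0.07 over 7 pairs, -0.27 to 0.09), so the block marks no known pairing. SDHB could not be fitted. At a median mean count of 10.4, the median standard error of a log2 fold change was 0.58 in the first comparison, against 0.39 over all genes. The part of depth in the number of calls was not tested.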
